A study of Mus musculus with 72 samples.

Results

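The genes described here are 9 genes that mark naive T cells, the T cells that have not yet met their antigen, and that let them circulate between blood and lymph nodes: Ccr7, S1pr1, Klf2, Il7r, Tcf7, Lef1, Bcl11b, Satb1 and Foxp1. They were taken by name from the gene column of the array files, each through the brightest of its detected probes, and they are 9 of the 10863 genes tested. Every array held the globin-reduced RNA from the whole blood of 1 young adult male C57BL/6 mouse, so that a level is an average over all blood cells. Mice had been exposed to 0.25 or 1 Gy of a neutron beam that carried a gamma-ray component (the groups N0.25 and N1), to 1 or 4 Gy of x-rays (X1 and X4), or to no radiation, and the study asks how the expression response in blood differs between the 2 kinds of radiation. On day 1 there were 5 unirradiated controls, 6 mice of N0.25, 6 of N1, 6 of X1 and 5 of X4. On day 3 there were 5 controls, 6 mice of N0.25 and 5 of X1, and on day 7 there were 6 controls, 5 mice of N0.25, 6 of N1, 5 of X1 and 6 of X4.

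A naive T cell enters a lymph node through the chemokine receptor CCR7 and leaves it through the sphingosine-1-phosphate receptor S1PR1, whose gene is switched on by the transcription factor KLF2. Between these visits it lives on interleukin-7, which it senses through the receptor chain encoded by Il7r, and it keeps its identity and quiescence through transcription factors such as TCF-1 (from Tcf7), LEF1, BCL11B, SATB1 and FOXP1. In blood Tcf7, Lef1, Bcl11b and Il7r are used mostly by T cells, while Ccr7, S1pr1, Klf2 and Foxp1 are also used by B cells, which are known to be among the most radiation-sensitive blood cells.

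Levels are log2 of the background-corrected signal with the median of the detected probes of each array set to 0, so a higher number means more transcript relative to the other transcripts of the same mouse. A gene is written as having fallen or risen only where limma gave an unadjusted p below 0.001 and, after Benjamini-Hochberg adjustment over all 10863 genes, a false discovery rate below 5%, and every adjusted p below is limma's. In whole blood a smaller number of T cells and less transcript in each T cell give the same lower level and cannot be told apart. The paper describes total blood counts in the normal range after irradiation and no significant change in the makeup of white blood cells. It prints no counts of T cells.

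The probes of all 9 genes were well above background on 72 of 72 arrays. The T cell receptor subunits Cd3d, Cd3e and Cd3g, which mark T cells of every kind, passed the same detection filter. Whether they were well above background on every single array was not counted. Between 40.2 and 67.3% of the probes of an array were well above background, lowest on the arrays of N1 at day 7 (40.2 to 50.3%), and precision is limited by how many mice each group held. The arrays were scanned on 7 dates, and no x-ray array was scanned on the date of the controls of its day, whereas 4 of 6 arrays of N1 at day 1, 1 of 6 at day 7 and all arrays of N0.25 at these 2 days were. Hepatocyte transcripts, from 26 liver marker genes, were present in some of the samples, and their mean level ranged from -1.73 to 5.60 in the controls of day 1, from 6.60 to 7.78 after X4 at day 1, from -5.33 to -3.55 in the controls of day 7 and from -5.73 to 6.36 after X4 at day 7. In the authors' table of processed values 60 of the 72 columns followed the array of another sample best, 21 of them an array of another group, and whether the table or the array files carry the right label was not settled, so every group here rests on the labels of the array files. On day 1 mouse 5 of N0.25 stood apart, with the lowest level of its group in all 9 genes and a mean hepatocyte level of 8.10.

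**Figure D1:**
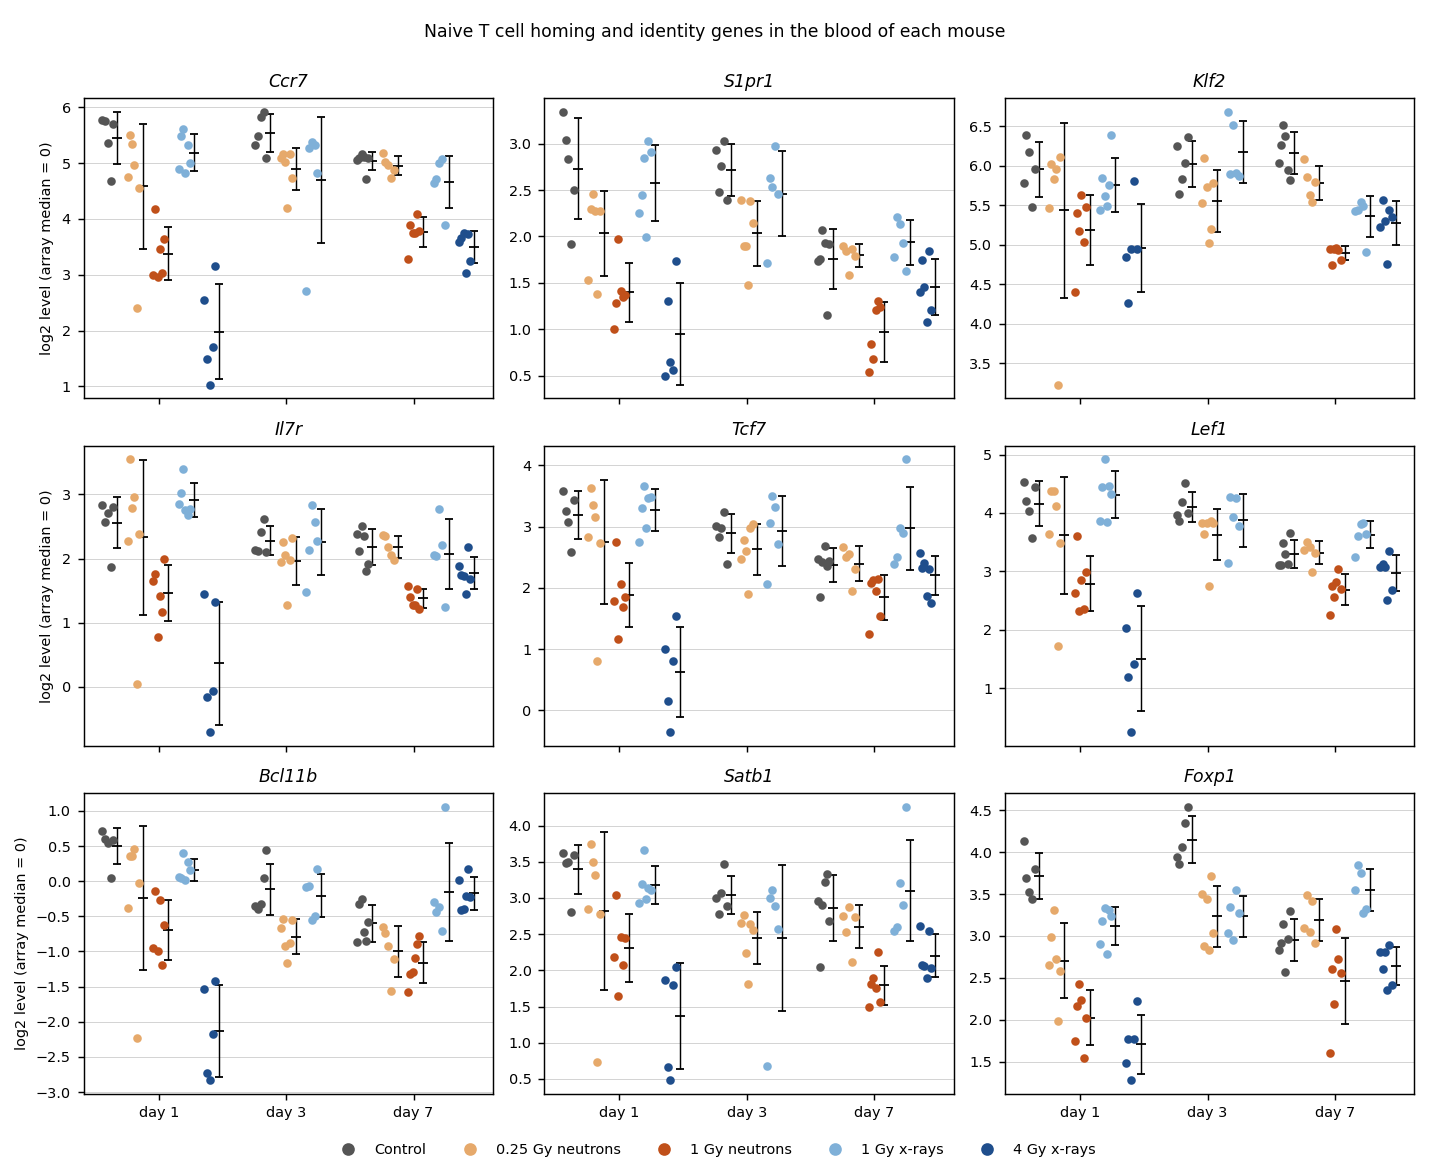
Log2 level of each of the 9 genes (vertical axis, 0 is the median of the array) in each of the 72 mice (points), in 13 groups coloured by exposure and placed by day, with the mean and SD of each group beside its points. The 4 Gy x-ray mice of day 1 lie below every control of their day in 8 of the 9 panels (Klf2 is the exception), and at day 7 Ccr7 and Klf2 lie below every control after 1 Gy neutrons and 4 Gy x-rays.

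On day 1, after X4, 8 of the 9 genes had fallen, by 1.78 to 3.47 on the log2 scale, against 18.6% of all genes tested that fell and 16.5% that rose in this comparison. In the N1 mice of that day, 7 of the 9 had fallen, by 1.09 to 2.07, where 10.5% of all genes fell and 6.96% rose. That count of 7 was 4 without control 2, and 2 with spiked-in control RNA as the zero, with normexp, with scan date as a block, with the replicate number as a block or among mice with a mean hepatocyte level above 0. After X1 at day 1, where 4.56% of all genes fell and 3.09% rose, 0 of the 9 were called, with 1 at an unadjusted p under 0.05, and after N0.25, where 0.00921% fell and 0% rose, 0 were called, with 2 at an unadjusted p under 0.05. The median difference of the 9 genes was -2.19 after X4, -1.30 after N1, -0.57 after N0.25 and -0.20 after X1, beside 0.00, 0.05, 0.12 and -0.01 for all genes. These 4 comparisons share the 5 controls of day 1.

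Ccr7, the receptor that takes naive T cells into lymph nodes, had the largest difference of the 9 genes on day 1 after X4 and after N1, while Foxp1 had it after N0.25 and X1. Its level in the controls of day 1 was 5.77, 5.75, 5.37, 4.68 and 5.69, and in the 5 mice after X4 it was 2.54, 1.49, 1.03, 1.70 and 3.15. All 5 irradiated mice were below the lowest control, and Ccr7 stood at 9.03% of the control level (log2 difference -3.47, SE 0.39, adjusted p = 3.36e-05). After N1 the 6 mice lay between 2.96 and 4.17 with a median of 3.24, again below every control, at 23.8% of the control level (-2.07, SE 0.28, adjusted p = 0.000393). After X1 Ccr7 lay between 4.82 and 5.62 with a median of 5.16, inside the range of the controls (-0.26, 95% confidence interval -0.77 to 0.25). After N0.25 it lay between 2.41 and 5.50 with a median of 4.85, and the difference was -0.87 with mouse 5 and -0.43 without it, neither of them called.

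S1pr1, the receptor for the way out of lymph nodes, fell after X4 and N1 on day 1, as Ccr7 did. In the controls of day 1 it was at 3.35, 3.04, 2.84, 1.92 and 2.50, and after X4 at 0.49, 1.31, 0.65, 0.56 and 1.73. The groups did not overlap, and the difference was -1.78 (SE 0.32, adjusted p = 0.000613). After N1 the mice ranged from 1.00 to 1.97 with a median of 1.36, and 5 of 6 lay below the lowest control (-1.33, SE 0.26, adjusted p = 0.00253), a call that was lost without control 2. The difference after X1 was -0.15 (95% confidence interval -0.74 to 0.44) and after N0.25 -0.69 (-1.34 to -0.05), neither of them called.

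Klf2, the factor that keeps T cells quiescent and switches on S1pr1, was the only one of the 9 genes not called on day 1 after X4, and 1 of the 2 not called after N1. Controls of day 1 were at 5.78, 6.39, 6.17, 5.48 and 5.95, and the mice after X4 at 4.84, 4.26, 4.95, 5.81 and 4.94, so that 1 of the 5 lay among the controls. The difference was -0.99 (SE 0.29, adjusted p = 0.00969) after X4 and -0.77 (SE 0.25, adjusted p = 0.025) after N1, whose mice ranged from 4.40 to 5.63 with a median of 5.29. After X4 Klf2 was called with quantile normalization (-1.34) and without mouse 4 of X4 (-1.21), and with Cd3 as the zero of the array its sign turned (0.58, and 0.10 after N1).

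The promoter of Klf2 is shown because Klf2 alone of the 9 genes was not called on day 1 after X4. This promoter also holds, alone among the promoters looked up, a palindromic form of the MEF2 binding motif, which is its own reverse complement. The RefSeq promoter table for build GRCm38.p6 matched 7 of the 9 genes, with 17 start sites, and the 250 bases before the start of Klf2 (chr8:72318812-72319061, plus strand) are printed 5′ to 3′ with the motif, which begins 118 bases before the start, in capitals.
Klf2: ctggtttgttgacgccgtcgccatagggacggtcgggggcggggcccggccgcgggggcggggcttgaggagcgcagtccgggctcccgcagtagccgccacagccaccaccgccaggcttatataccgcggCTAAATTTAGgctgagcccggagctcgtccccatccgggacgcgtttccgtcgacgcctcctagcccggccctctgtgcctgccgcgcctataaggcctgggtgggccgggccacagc
The palindrome was found in 13 of 32851 promoters of this length, or 0.0396%, it was searched for after the promoters had been read, and a match is a description of letters and not a binding site.

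Il7r, which encodes the receptor chain for interleukin-7, fell after X4. Its levels were 2.83, 2.56, 2.70, 1.87 and 2.81 in the controls of day 1 and 1.45, -0.16, -0.71, -0.06 and 1.32 after X4, with no overlap (-2.19, SE 0.41, adjusted p = 0.000744). After N1 it ranged from 0.78 to 2.00 with a median of 1.54, and 5 of 6 mice were below the lowest control, but the difference of -1.09 missed the unadjusted threshold (adjusted p = 0.00583). It was called after N1 with the 75th percentile as the zero of the array, with quantile normalization, without the 1.5-fold filter, and without control 4 or N1 mouse 6. After X1 it was 0.35 above the controls (95% confidence interval -0.09 to 0.80), not called.

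The promoter of Il7r is printed because it holds ACTTCCTG, a form of the ETS motif, which was also found in 1 promoter each of Lef1 and Satb1 and in 884 of the 32851 promoters (2.69%), counting both strands. The 250 bases before the start (GRCm38.p6, chr15:9529877-9530126, minus strand) run 5′ to 3′, with the motif in capitals 49 bases before the start.
Il7r: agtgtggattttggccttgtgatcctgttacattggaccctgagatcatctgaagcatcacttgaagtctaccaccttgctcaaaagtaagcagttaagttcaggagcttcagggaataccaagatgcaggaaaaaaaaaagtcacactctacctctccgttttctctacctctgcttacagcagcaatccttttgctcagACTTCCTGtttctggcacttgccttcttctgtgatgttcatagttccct
The letters GTAAACA, a forkhead motif, were in 3.17% of all promoters and in 0 of the 17 of these genes, and CTTTGAT or CTTTGAA, forms of the TCF and LEF motif, were in 7.48% of all and in 1 promoter each of Bcl11b and Foxp1.

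Tcf7 and Lef1 encode the paired factors TCF-1 and LEF1 of T cell identity, and they followed each other closely over the mice (Pearson r = 0.947 over 72 arrays, the highest of the 36 pairs among the 9 genes). Tcf7 was at 3.58, 3.26, 3.07, 2.58 and 3.43 in the controls of day 1 and at 1.01, 0.15, -0.36, 0.80 and 1.53 after X4 (-2.56, SE 0.34, adjusted p = 0.000108). Lef1 was at 4.53, 4.21, 4.04, 3.57 and 4.45 in the controls and at 2.03, 1.20, 0.24, 1.42 and 2.63 after X4 (-2.66, SE 0.39, adjusted p = 0.000175). In both genes every mouse of X4 was below every control. After N1 Tcf7 ranged from 1.16 to 2.74 (median 1.82) and fell by 1.30 (SE 0.28, adjusted p = 0.00358), and Lef1 ranged from 2.32 to 3.60 (median 2.75) and fell by 1.37 (SE 0.26, adjusted p = 0.0023), with 5 of 6 mice below the lowest control in each. Leaving out single mice ended the call of Tcf7 after N1 in 7 of 11 fits (each control but control 4, and N1 mice 1, 5 and 6) and that of Lef1 in 0. After X1 neither was called (0.09 and 0.15).

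Bcl11b, a zinc finger factor required for T cell commitment, fell by 2.63 (SE 0.30, adjusted p = 4.05e-05) after X4. The controls of day 1 were at 0.71, 0.60, 0.55, 0.05 and 0.58 and the irradiated mice at -1.53, -2.73, -2.83, -2.18 and -1.41, all below the controls. After N1 the range was -1.19 to -0.14 (median -0.79), also below every control (-1.19, SE 0.23, adjusted p = 0.00234). The probe lies in the coding sequence (mm9, chr12:109153847-109153906, minus strand) and reads part of a zinc finger, in which the capitals mark the codons of its pair of zinc-binding cysteines and of its first zinc-binding histidine.
Bcl11b probe: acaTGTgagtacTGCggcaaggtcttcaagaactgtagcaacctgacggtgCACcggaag

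Satb1 encodes a chromatin organizer of developing and naive T cells. It was at 3.62, 3.48, 3.49, 2.80 and 3.60 in the controls of day 1 and at 1.86, 0.67, 0.49, 1.80 and 2.04 after X4, without overlap (-2.03, SE 0.33, adjusted p = 0.000356). After N1 it ranged from 1.65 to 3.04 with a median of 2.32 (-1.09, SE 0.25, adjusted p = 0.0056), and 9 of 11 fits that left out 1 mouse no longer called it, the exceptions being those without control 4 or N1 mouse 2.

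Foxp1, a forkhead factor that holds naive T cells in quiescence and is also used by B cells, was the gene in which all 4 exposures of day 1 lay wholly below the controls. Controls were at 4.13, 3.69, 3.52, 3.44 and 3.80, and the mice of X4 at 1.48, 1.76, 1.28, 1.77 and 2.22 (-2.01, SE 0.23, adjusted p = 4e-05). Those of N1 ranged from 1.54 to 2.43 with a median of 2.09 (-1.69, SE 0.21, adjusted p = 0.000217). After N0.25 the range was 1.99 to 3.31 with a median of 2.69, and after X1 it was 2.79 to 3.34 with a median of 3.21. These lower doses did not pass the test (-1.01, SE 0.25, adjusted p = 0.167 and -0.59, SE 0.17, adjusted p = 0.0312), and without mouse 5 of N0.25 the difference was -0.87 (adjusted p = 0.0826). All mice of an exposure lay on one side of all controls in 2.88% of all genes after N0.25, 10.5% after X1, 21.6% after N1 and 44.4% after X4, and among the 9 genes in 1, 1, 3 and 8.

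The array carries 4 detected probes for Foxp1, and they are printed, where the sequence is coding, because they did not give the same answer at day 7. The probe used ends at the stop codon of the protein, in capitals (mm9, chr6:98880084-98880143, minus strand). A further probe lies in an upstream part of the gene (mm9, chr6:99112925-99112984, minus strand), and the file gives no position for another.
Foxp1 end of the protein: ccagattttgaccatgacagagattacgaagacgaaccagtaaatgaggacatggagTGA
Foxp1 upstream: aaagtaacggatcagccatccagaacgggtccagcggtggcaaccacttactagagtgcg
Foxp1 without position: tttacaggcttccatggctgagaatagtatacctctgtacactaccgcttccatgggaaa
On day 1 all 4 probes were lower than in controls after N1, by -1.57 to -2.11, and after X4, by -2.01 to -2.96. At day 7 after X4 the probe used gave -0.31 and the probe without position -0.20, while the upstream probe gave -1.34 and the last probe, designed to a separate cDNA at this gene, -1.82. After X1 at day 7 the same 4 probes gave 0.60, 0.47, -0.52 and -0.84, so the values of Foxp1 at day 7 hold for the probe used. The upstream probe was well above background on 65 of 72 arrays and the last on 71. The 2 probes each of Tcf7, Lef1 and Bcl11b had the same sign after N1 and X4 on day 1.

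**Figure D2:**
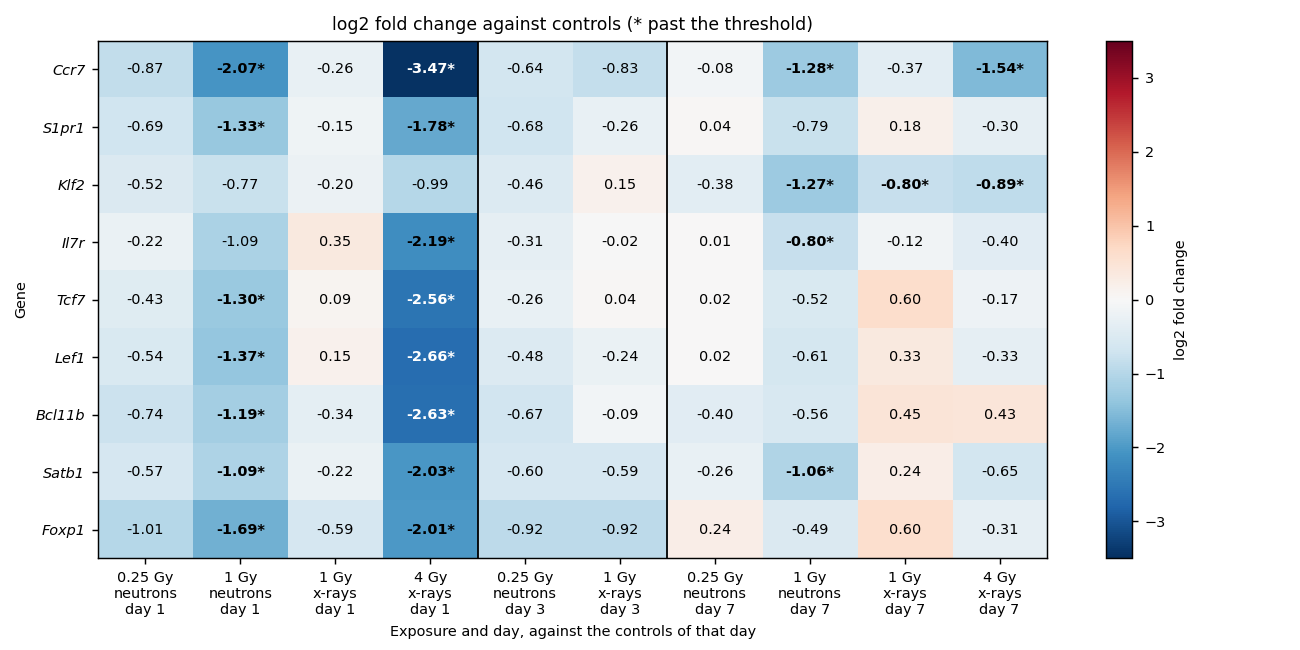
Log2 difference from the controls of the day for the 9 genes (rows) and the 10 exposures and days (columns), as colour from blue (lower) to red (higher) and as a number, with an asterisk on called genes. The columns of 4 Gy x-rays and 1 Gy neutrons at day 1 hold 8 and 7 asterisks, and Klf2 has its asterisks at day 7.

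On day 3, which was measured for 2 of the exposures, 0 of the 9 genes were called. After N0.25 all 9 were below 0 (-0.26 to -0.92, median -0.60), where 0.626% of all genes fell, 0.543% rose and the median of all genes was 0.03, and 5 had an unadjusted p under 0.05. Bcl11b, Satb1 and Foxp1 lay wholly below the controls in this comparison, and 6.18% of all genes had groups that did not overlap. The 2 irradiated mice scanned on the date of the controls were below them in the mean of all 9 genes (-0.18 to -0.97). Foxp1 was at 3.94, 3.86, 4.06, 4.35 and 4.54 in the controls of day 3, at 2.84 to 3.71 (median 3.24) after N0.25 (-0.92, SE 0.22, adjusted p = 0.0572) and at 3.04, 3.35, 2.95, 3.55 and 3.28 after X1 (-0.92, SE 0.21, adjusted p = 0.0514). After X1, 0.414% of all genes fell and 1.58% rose, the 9 genes ranged from -0.92 to 0.15, and 1 of the 9, Foxp1, stood apart, against 8.88% of all genes. Mouse 1 of that group had a Ccr7 level of 2.71 and a Satb1 level of 0.67, where the other 4 lay at 4.82 to 5.37 and 2.58 to 3.10, and without it the differences were -0.34 for Ccr7, -0.15 for Satb1 and -0.87 for Foxp1 (adjusted p = 0.0339), with 0 of the 9 genes called. The hepatocyte markers had mean levels of 3.22 to 6.94 after N0.25 and -4.87 to 5.08 in the controls at day 3, and their part in these differences was not tested.

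At day 7 the calls were 4 after N1 and 2 after X4, beside 7 and 8 on day 1, and 1 after X1 and 0 after N0.25, beside 0 in each. With spiked-in control RNA as the zero the N1 counts ran the other way, 2 on day 1 and 9 at day 7. That zero also moved the median of all genes after N1, from 0.06 to 0.60 on day 1 and from 0.29 to -1.66 at day 7. With dim spots set to missing 9 were called after N1 at day 7, with no share of all genes to set beside it. After N1, 4 of the 9, Ccr7, Klf2, Satb1 and Il7r, had fallen, against 13.3% of all genes that fell and 25.1% that rose, and after X4, 2, Ccr7 and Klf2, against 8.5% and 9.06%. After X1, 1, Klf2, had fallen (0.709% of all genes fell and 3.29% rose) and after N0.25, 0 (0% fell and 0.0276% rose), with Klf2 alone at an unadjusted p under 0.05. The medians of the 9 genes were -0.79, -0.33, 0.24 and 0.01, beside 0.31, -0.04, 0.04 and 0.06 for all genes, and these 4 comparisons share the 6 controls of day 7.

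Ccr7 was between 4.72 and 5.16 (median 5.09) in the controls of day 7, between 3.27 and 4.09 (median 3.77) after N1 and between 3.03 and 3.74 (median 3.62) after X4. Neither irradiated group reached the lowest control, and Ccr7 stood at 41.2% (-1.28, SE 0.16, adjusted p = 1.86e-05) and 34.4% (-1.54, SE 0.16, adjusted p = 1.99e-05) of the control level. After X1 it was at 4.64, 4.71, 5.01, 5.07 and 3.90 (-0.37, 95% confidence interval -0.83 to 0.09) and after N0.25 at 5.19, 5.01, 4.96, 4.73 and 4.88 (-0.08, -0.37 to 0.21), both overlapping the controls.

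Over all 13 groups the medians of Ccr7 ran, from high to low, 5.69 in the controls of day 1, 5.49 in those of day 3, 5.28 after X1 at day 3, 5.16 after X1 at day 1, 5.09 in the controls of day 7, 5.05, 4.96 and 4.85 after N0.25 at days 3, 7 and 1, and 4.71 after X1 at day 7. The ranges of neighbours in this order overlapped. They were followed by 3.77 after N1 at day 7, 3.62 after X4 at day 7, 3.24 after N1 at day 1 and 1.70 after X4 at day 1, and here too each group overlapped its neighbours.

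Klf2 was called at day 7 after 3 exposures and at day 1 after none. The test of its day 7 difference minus that of day 1 was not called after any of the 3 (0.11 after X4, -0.50 after N1 and -0.60 after X1). It ranged from 5.82 to 6.51 (median 6.15) in the controls of day 7 and from 4.75 to 4.95 (median 4.94) after N1, at 41.5% of the control level (-1.27, SE 0.15, adjusted p = 1.35e-05). After X4 the range was 4.76 to 5.57 (median 5.33), a difference of -0.89 (SE 0.18, adjusted p = 0.002). After X1 the 5 mice were at 5.43, 5.44, 5.54, 5.49 and 4.91 (-0.80, SE 0.18, adjusted p = 0.0231). In all 3 comparisons every irradiated mouse was below every control, where the groups did not overlap in 37.2% of all genes after N1, 18.2% after X4 and 7.98% after X1. The call after X1 was lost in 10 of 11 fits without 1 mouse, the exception being that without control 6, and that after X4 was lost in 0 of 12. Klf2 was not called after X4 with spiked-in control RNA as the zero or with the hepatocyte level as a covariate. Only 1 gene was called after X4 with quantile normalization, normexp, no detection filter, all groups in 1 fit or the replicate number as a block. After N0.25 Klf2 was at 6.09, 5.85, 5.63, 5.54 and 5.80 (-0.38, 95% confidence interval -0.74 to -0.02, adjusted p = 0.191).

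Il7r ranged from 1.21 to 1.57 (median 1.35) after N1 at day 7 against 1.80 to 2.51 (median 2.24) in the controls, with no overlap (-0.80, SE 0.16, adjusted p = 0.000848). Satb1 reached at most 2.25 (median 1.78) against 2.05 to 3.34 (median 2.93), with 5 of 6 mice below the lowest control (-1.06, SE 0.22, adjusted p = 0.00107), and was lost in 4 of 12 fits without 1 mouse (controls 1 and 4, and N1 mice 1 and 6). After X4 Il7r was at 1.45 to 2.18 (median 1.73) and Satb1 at 1.90 to 2.62 (median 2.07), neither called (-0.40, adjusted p = 0.078 and -0.65, adjusted p = 0.0337).

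By the probes used, the T cell identity factors Tcf7, Lef1 and Bcl11b were not called at day 7 after any exposure. Tcf7 ranged from 1.85 to 2.69 (median 2.44) in the controls, from 1.25 to 2.14 (median 2.01) after N1 (-0.52, SE 0.20, adjusted p = 0.0387) and from 1.75 to 2.57 (median 2.31) after X4 (-0.17, 95% confidence interval -0.58 to 0.24). Lef1 lay between 3.11 and 3.66 (median 3.21) in the controls and between 2.25 and 3.04 (median 2.72) after N1, below every control but not called (-0.61, SE 0.17, adjusted p = 0.00759). It was 2.51 to 3.35 (median 3.08) after X4 (-0.33, 95% confidence interval -0.71 to 0.06). Bcl11b was at -0.86 to -0.26 (median -0.65) in the controls of day 7 and at -0.40 to 0.18 (median -0.22) after X4, 0.43 higher (95% confidence interval 0.07 to 0.78, adjusted p = 0.0569), and 4 of 6 of those mice were above the highest control. After N1 it was -1.58 to -0.78 (median -1.19), a difference of -0.56 (SE 0.18, adjusted p = 0.0177). The other detected Bcl11b probe passed the same threshold after N1 at day 7 (-1.09, SE 0.14, adjusted p = 2.43e-05 over all detected probes) and stood at -0.00052 after X4, so the day 7 values of Bcl11b differ between its probes. S1pr1 was at 1.15 to 2.07 (median 1.83) in the controls, 0.54 to 1.31 (median 1.02) after N1 (-0.79, SE 0.20, adjusted p = 0.00386) and 1.08 to 1.85 (median 1.43) after X4 (-0.30, 95% confidence interval -0.72 to 0.11). Foxp1 was at 2.57 to 3.30 (median 2.94), 1.60 to 3.09 (median 2.58, difference -0.49) and 2.35 to 2.89 (median 2.70, difference -0.31) in these 3 groups, and at 3.55, 3.85, 3.75, 3.28 and 3.32 after X1, 0.60 higher than in the controls (SE 0.18, adjusted p = 0.0581).

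The zero of the arrays matters at day 7 after N1, where 14 of 15 red cell genes had risen (median difference 2.80). With the spiked-in control RNA as the zero, the median of all genes moved from 0.29 to -1.66 there, and the 9 genes stood at -2.40 (Foxp1) to -3.19 (Ccr7), all called. The part of red cell RNA in these levels was not tested. After X4 the same change of zero moved the median of all genes from -0.03 to 0.09, with Ccr7 at -1.41 and called.

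Scan date, hepatocyte RNA and B cells moved with some of these results. Within the 1 scan date shared with the controls, the 4 mice of N1 at day 1 were below the 5 controls in all 9 genes (-0.80 to -2.05, median -1.25), and with scan date as a block 2 of the 9, Ccr7 and Foxp1, were called. At day 7 the single neutron mouse on the date of the controls was below their mean in all 9 genes (-0.61 to -1.76), and 1 gene, Ccr7, was called with the block. The X4 mice shared no scan date with the controls on either day, so X4 and scan date cannot be told apart, and the 8 calls of day 1 with scan date as a random block do not separate them. With the hepatocyte level as a covariate, Ccr7, Bcl11b and Foxp1 were called after X4 at day 1 (-2.84, -2.31 and -1.85) and 5 genes after N1 at day 1. At day 7 Ccr7 and Klf2 were called after N1 with that covariate (-1.05 and -1.26), and Ccr7 alone after X4 (-1.36). Among mice with a mean hepatocyte level above 0, an alternative chosen after seeing those levels, with 5 irradiated mice (6.60 to 7.78) and 3 controls (3.37 to 5.60), whose levels still did not overlap, 6 genes were called after X4 at day 1 (Ccr7, Tcf7, Lef1, Bcl11b, Satb1 and Foxp1). The B cell markers also fell, and 14 of 14 tested had fallen after X4 at day 1 (median -4.17) and 13 after N1 (median -2.60), their mean level being 2.37 to 3.13 in the controls, -1.77 to -0.57 after X4 and -0.99 to 0.92 after neutrons. At day 7, 13 of 14 had fallen after X4 (median -2.73) and 11 after N1 (median -2.15). At least 11 of the 15 listed B cell genes stayed above background on every array, and the part of B cells in the levels of Ccr7, S1pr1, Klf2 and Foxp1 was not tested.

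The exposures were also compared with each other, which uses no control mice. On day 1, 7 of the 9 genes were lower after N1 than after X1, against 7.72% of all genes that were lower and 1.33% that were higher, led by Ccr7 (-1.81, SE 0.24, adjusted p = 0.000924), Lef1 (-1.52), Il7r (-1.45), Tcf7 (-1.39), S1pr1 (-1.18), Foxp1 (-1.10) and Bcl11b (-0.85), the last 3 of which changed sign with Cd3 as the zero (0.15, 0.24 and 0.48). All 6 neutron mice were below all 6 x-ray mice in each of these 7, where 12.4% of all genes had groups that did not overlap. The call of Bcl11b was lost in 10 of 12 fits without 1 mouse, all but those without N1 mouse 2 or 4. Satb1 (-0.86, adjusted p = 0.0174) and Klf2 (-0.57, adjusted p = 0.103) were not called. Within the shared scan date, 2 neutron mice stood below 4 x-ray mice in the mean of all 9 genes (-0.51 to -1.67), and 0 were called with the block (for Ccr7 adjusted p = 0.0987).

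At day 7, 4 genes were lower after N1 than after X1, against 5.67% of all genes lower and 17.3% higher, namely Satb1 (-1.30, SE 0.29, adjusted p = 0.00345), Foxp1 (-1.09), S1pr1 (-0.97) and Lef1 (-0.95). All 9 were below 0, 6 of them without overlap (26.8% of all genes), and within the 2 shared scan dates all 9 were below 0 as well. Each date rests on a single mouse on one side, with 1 neutron and 4 x-ray mice on the first and 4 and 1 on the other. The count fell to 0 without X1 mouse 3 or 4, to 1 without N1 mouse 2 or 3, to 2 without N1 mouse 6 or X1 mouse 2, and to 0 with scan date as a block.

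On day 1, 0 genes were called between N1 and X4, where 0.0552% of all genes were higher and 0% lower after neutrons. All 9 were higher after neutrons, by 0.23 to 1.44, and 6 had an unadjusted p under 0.05, with intervals such as 0.57 to 2.22 for Ccr7 and 0.75 to 2.13 for Bcl11b, in which the groups did not overlap (1.94% of all genes). At day 7 Bcl11b was lower after neutrons (-0.98, SE 0.18, adjusted p = 0.000306), where 10.9% of all genes were called lower and 31% higher. The 6 neutron mice were at -1.58 to -0.78 and the 6 x-ray mice at -0.40 to 0.18, without overlap, as in 42.4% of all genes. Within the shared scan date, which held 1 neutron mouse and 6 x-ray mice, the difference was -0.61. With scan date as a block Bcl11b was not called.

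The 2 doses of x-rays differed on day 1 in 8 of the 9 genes, all but Klf2, which were lower after 4 Gy than after 1 Gy, against 13% of all genes (4.58% were higher). The differences were -3.21 for Ccr7 (SE 0.35, adjusted p = 5.44e-05), -2.81 for Lef1, -2.65 for Tcf7, -2.54 for Il7r, -2.30 for Bcl11b, -1.80 for Satb1, -1.63 for S1pr1 and -1.42 for Foxp1, of which Satb1, S1pr1 and Foxp1 changed sign with Cd3 as the zero (0.25, 0.41 and 0.63). The groups did not overlap in any of the 8, against 23.7% of all genes. One mouse of 4 Gy shared a scan date with 4 mice of 1 Gy, was below their mean in all 9 genes (-0.93 to -2.47), and fitting scan date as a block left 0 calls. By day 7 there were 2 genes lower after 4 Gy, Ccr7 (-1.17, SE 0.23, adjusted p = 0.00486) and Foxp1 (-0.90, SE 0.18, adjusted p = 0.00438), against 5.54% of all genes (4% were higher), although Foxp1 stood at 0.07 with the spiked-in control RNA as the zero. Both were without overlap, as were 14.2% of all genes, and 2 genes were called with scan date as a block.

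Whether an exposure's difference from controls changed between the days was tested as the day 7 difference minus that of day 1. For X4 the difference was higher at day 7 in 7 of the 9 genes, against 12.4% of all genes, with changes of 3.06 in Bcl11b (SE 0.33, adjusted p = 8.3e-07), 2.39 in Tcf7, 2.33 in Lef1, 1.93 in Ccr7, 1.78 in Il7r, 1.70 in Foxp1 and 1.48 in S1pr1, the last of which changed sign with Cd3 as the zero (-0.22). The mean of the Cd3 subunits itself changed by 1.70 (SE 0.35) between the days, and the count of 7 became 1 with Cd3 as the zero and 3 with normexp background correction. With Cd3 as the zero, 0.663% of all genes were called higher and 41.1% lower in this test. The call of Il7r was lost in 9 of 22 fits without 1 mouse and that of S1pr1 in 10. Klf2 changed by 0.11 (95% confidence interval -0.57 to 0.78) and Satb1 by 1.37 (adjusted p = 0.00893), neither called. For N1, 1 gene was called, Foxp1 (1.20, SE 0.31, adjusted p = 0.00306), against 21.4% of all genes called higher. With the spiked-in control RNA as the zero 7 of the 9 were called in the opposite direction, Foxp1 at -1.25. The median of all genes moved with that zero from 0.08 to -2.41, so this turn is not particular to the 9 genes. The call of Foxp1 was lost in 17 of 23 fits without 1 mouse. Foxp1 was also the 1 gene called for N0.25 (1.25, SE 0.29, adjusted p = 0.0414, 1.23% of all genes), lost in 15 of 22 fits without 1 mouse, and for X1 (1.19, SE 0.24, adjusted p = 0.0015, 6.83% of all genes). These Foxp1 values hold for the probe used, since its probes differ at day 7. With the mean of probes Foxp1 was not called for N1, N0.25 or X1. The 4 tests share the controls of both days, and Foxp1 was 0.76 lower in the controls of day 7 than in those of day 1 (adjusted p = 0.0193, not called). In the controls 8 of the 9 genes were lower at day 7, which adds to each of their changes. The mean of S1pr1 went from 2.73 to 1.76 in the controls and from 0.95 to 1.46 after X4. That of Bcl11b, whose day 7 values differ between its probes, went from 0.50 to -0.60 in the controls and from -2.14 to -0.17 after X4.

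**Figure D3:**
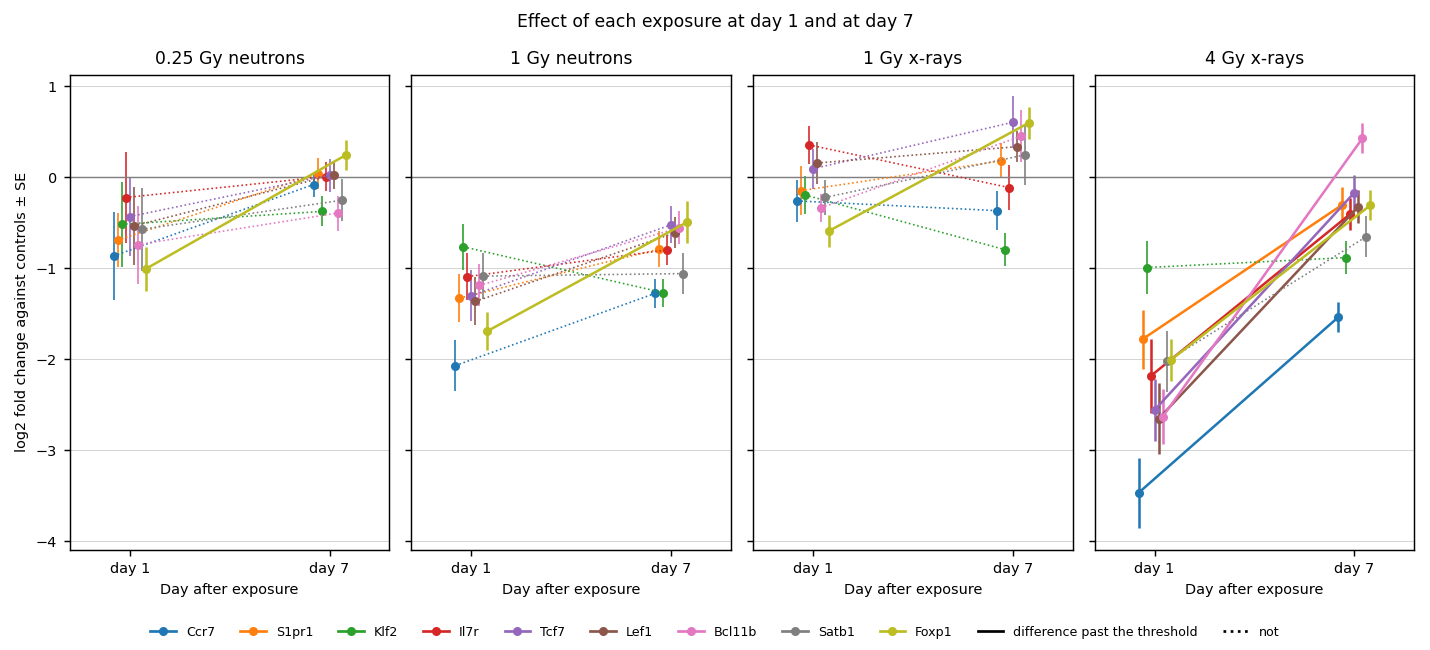
Log2 difference from the controls (vertical axis, with the SE) at day 1 and day 7 (horizontal axis) for the 9 genes, each a coloured line, in one panel for each exposure, with solid lines where the difference between the days was called and dotted lines where it was not. After 4 Gy x-rays Bcl11b went from -2.63 to 0.43 while Klf2 was at -0.99 and -0.89.

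The unirradiated mice themselves differed between the days, which were also different scan dates. From day 1 to day 7, 2 of the 9 genes were called lower, Bcl11b (-1.10, adjusted p = 0.014) and Lef1 (-0.86, adjusted p = 0.019), against 1.8% of all genes, while Bcl11b and Foxp1 were the 2 genes without overlap (9.54% of all genes). Of the 9, 8 were below 0 and 6 had an unadjusted p under 0.05 by limma. Their median was -0.76, beside 0.06 for all genes. From day 3 to day 7, 3 were called lower, Foxp1 (-1.20, adjusted p = 0.0146), S1pr1 (-0.96, adjusted p = 0.0294) and Lef1 (-0.81, adjusted p = 0.0318), against 1.48% of all genes, and these were also the 3 without overlap (5.31% of all genes). Here too 8 were below 0 and 6 had an unadjusted p under 0.05 by limma, with a median of -0.50 beside 0.06 for all genes. Relative to Cd3, 1 gene was called lower from day 1 to day 7 (0.552% of all genes). From day 3 to day 7 it was also 1, with no share of all genes to set beside it. From day 1 to day 3, 0 were called by limma, 2 had an unadjusted p under 0.05, and 0% of all genes fell. In these 3 comparisons scan date cannot be told apart from day.

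Relative to the T cell receptor subunits Cd3d, Cd3e and Cd3g the differences describe the 9 genes against T cell transcripts rather than against the whole blood. The mean of the 3 subunits was -1.57 from the controls after X4 at day 1, -0.86 after N1 and 0.47 after X1, and -0.44 after N1 at day 7. On day 1 Ccr7 was the 1 gene of the 9 still called lower relative to Cd3 after X4 (-1.90, SE 0.30, adjusted p = 0.000137), where 1.48% of all genes were, and after N1 (-1.21, SE 0.26, adjusted p = 0.00243), where 0.782% were. Klf2 lay above Cd3 after both (0.58 and 0.10), not called. After X1, with Cd3 above the controls, 4 genes were called lower relative to it, Foxp1 (-1.07), Bcl11b (-0.81), Ccr7 (-0.74) and Satb1 (-0.70), against 13.3% of all genes.

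At day 7 Ccr7 and Klf2 were called lower relative to Cd3 after X4 (-1.67, adjusted p = 6.78e-05, and -1.01, adjusted p = 0.00382), against 8.48% of all genes, and after N1 (-0.84, adjusted p = 0.0018, and -0.83, adjusted p = 0.00145), against 3.78%. The subunits did not move together in the neutron comparison, with Cd3d at -0.90 (called), Cd3g at -0.90 and Cd3e at 0.48. Ccr7 was also the 1 gene lower relative to Cd3 after X4 than after X1 on day 1 (-1.16, SE 0.25, adjusted p = 0.000659), where 0.193% of all genes were. Between N1 and X1 the differences relative to Cd3 that lay farthest from 0 were 0.77 for Klf2 on day 1 (adjusted p = 0.0326) and -0.73 for Satb1 at day 7 (adjusted p = 0.0259), neither called, where 0.0276% of all genes were called lower and 50.3% higher relative to Cd3 on day 1, and 0.267% and 31.3% at day 7.

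**Figure D4:**
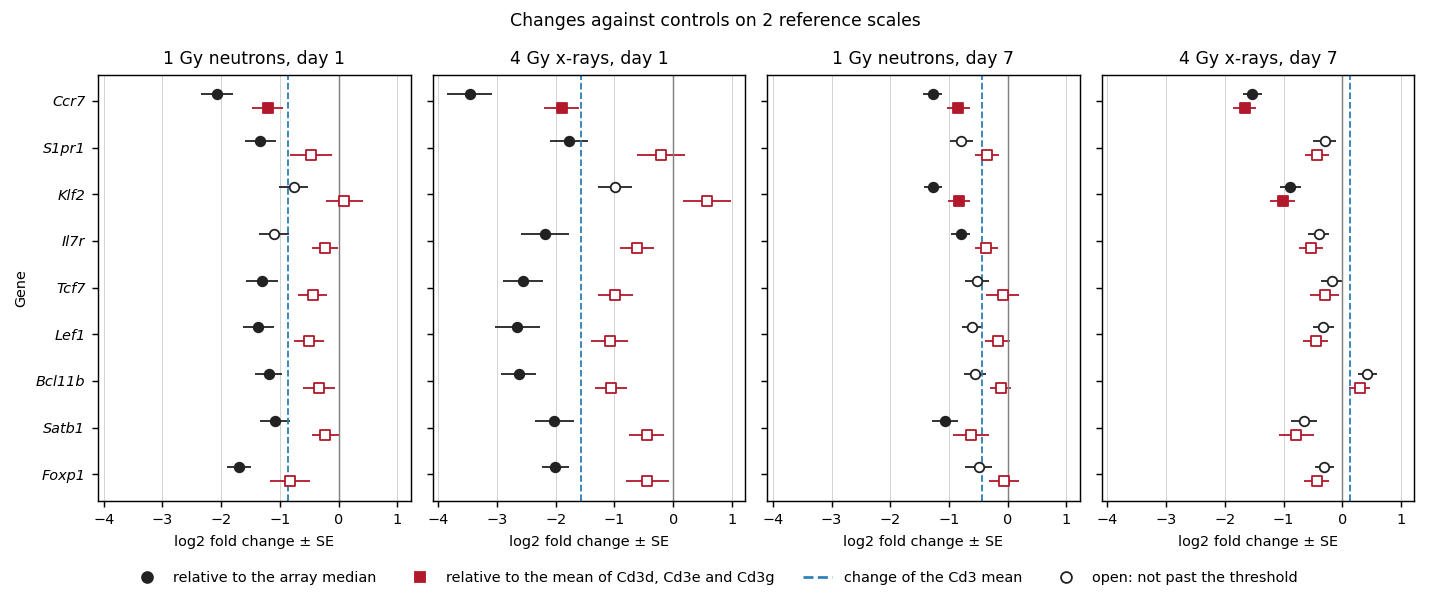
Log2 difference from controls (horizontal axis, with the SE) of the 9 genes relative to the array median (black circles) and to the mean of Cd3d, Cd3e and Cd3g (red squares), in 4 comparisons, with filled symbols for called genes and a dashed line at the difference of the Cd3 mean. Ccr7 is called on both scales in all 4 panels (-1.21, -1.90, -0.84 and -1.67 relative to Cd3), and Klf2 changes sign on day 1.

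Other genes of the naive T cell programme were read from a list of 30, of which 25 were tested. After X4 at day 1, 12 had fallen and 2 risen (median -1.42), where 18.6% of all genes fell and 16.5% rose, and after N1, 7 had fallen and 0 risen (median -0.76), where 10.5% fell and 6.96% rose. After X1, 0 were called (median 0.19). The same shares of all genes apply to the lists that follow. Bach2, a repressor that keeps T and B cells naive, fell by 3.40 after X4 (adjusted p = 2.76e-06) and by 2.24 after N1 (adjusted p = 9.41e-05). Foxo1, which drives Klf2, Il7r and Ccr7, fell by 1.42 (adjusted p = 0.000257) and 1.30 (adjusted p = 0.000339). Id3, an inhibitor of E proteins, was at 0.01 and -0.47, not called.

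At day 7, 7 of the 25 had fallen and 2 risen after N1 (median -0.55), where 13.3% of all genes fell and 25.1% rose, and 4 had fallen and 3 risen after X4 (median -0.05), where 8.5% fell and 9.06% rose. After X1, 1 had fallen (median 0.09), where 0.709% of all genes fell. Id3 fell by 1.95 after N1 (adjusted p = 1.84e-05), by 1.80 after X4 (adjusted p = 0.00104) and by 1.19 after X1 (adjusted p = 0.021). Bach2 fell by 1.89 (adjusted p = 1.68e-06) after neutrons and by 2.19 (adjusted p = 1.05e-06) after X4. Foxo1 fell by 0.85 after N1 (adjusted p = 0.000333).

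Of the 15 genes of the T cell receptor complex and its coreceptors, 7 had fallen and 1 risen after X4 at day 1 (median -1.35), 4 had fallen after N1 (median -0.67), and 1 had risen after X1 (median 0.40). Cd3d fell by 1.82 (adjusted p = 0.000652) and Cd3e by 1.56 (adjusted p = 0.000704) after X4, while Cd3g (-1.35) and the signalling chain Cd247 (0.54) were not called. The 20 genes of effector and memory T cells, several of them shared with NK cells, differed in sign, and 6 had risen after N1, 9 after X1 and 4 after X4 at day 1, where 1 had fallen. Id2, a factor of effector T and NK cells, rose by 1.65 after X4 (adjusted p = 7.09e-05) and by 1.43 after N1 (adjusted p = 0.000499) and X1 (adjusted p = 0.00134). At day 7, 10 of the 20 had risen after X4 (median 0.91), among them Tbx21 (0.94) and Eomes (0.89), the T-box factors of effector cells, and 0 after N1 (median 0.00). Prdm1 was called in 0 of the 10 comparisons with controls.

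Of the IL-7 receptor signalling chain 4 of 10 genes were tested. Cish, the feedback inhibitor of cytokine receptors, rose by 2.47 after X4 (adjusted p = 1.28e-05), by 1.79 after X1 (adjusted p = 0.00288) and by 1.57 after N1 (adjusted p = 0.00178) at day 1, and by 2.17 after X4 at day 7 (adjusted p = 2.62e-05), where Il7r was at -2.19, 0.35, -1.09 and -0.40. Bcl2, a survival factor downstream of IL-7, was not called (-1.02 after X4 at day 1), Socs1, a further inhibitor, rose by 0.88 after X1 at day 1 (adjusted p = 0.00541) and fell by 0.74 after N1 at day 7 (adjusted p = 0.00121), and Pim1, a survival kinase, rose by 1.39 in the latter (adjusted p = 0.000301).

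Among partners of TCF-1 and LEF1, 6 of 12 were tested, and 3 had fallen after X4 and 1 after N1 at day 1. Tle4, a corepressor, fell by 1.30 after X4 (adjusted p = 0.00103), Tle1 and Tle2 were not called (0.37 and -0.14), and Tcf7l2, a relative of Tcf7, was at -0.59. At day 7 after N1 Tle2 rose by 1.85 (adjusted p = 0.00108) and Tcf7l2 by 1.19 (adjusted p = 0.000236). Of 12 other genes of lymphocyte traffic tested, 5 had fallen after X4 and 4 after N1 at day 1, 4 had fallen and 2 risen after X4 at day 7, and 4 had fallen after N1 at day 7. The integrin gene Itgal was called in 0 of the 10 comparisons, Itgb2 rose by 1.28 after X4 at day 7 (adjusted p = 0.000128), and Cxcr4, the bone marrow homing receptor, was at -0.996 after X4 at day 1, not called. All these lists were chosen with earlier results known, and their counts describe these mice only.

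**Figure D5:**
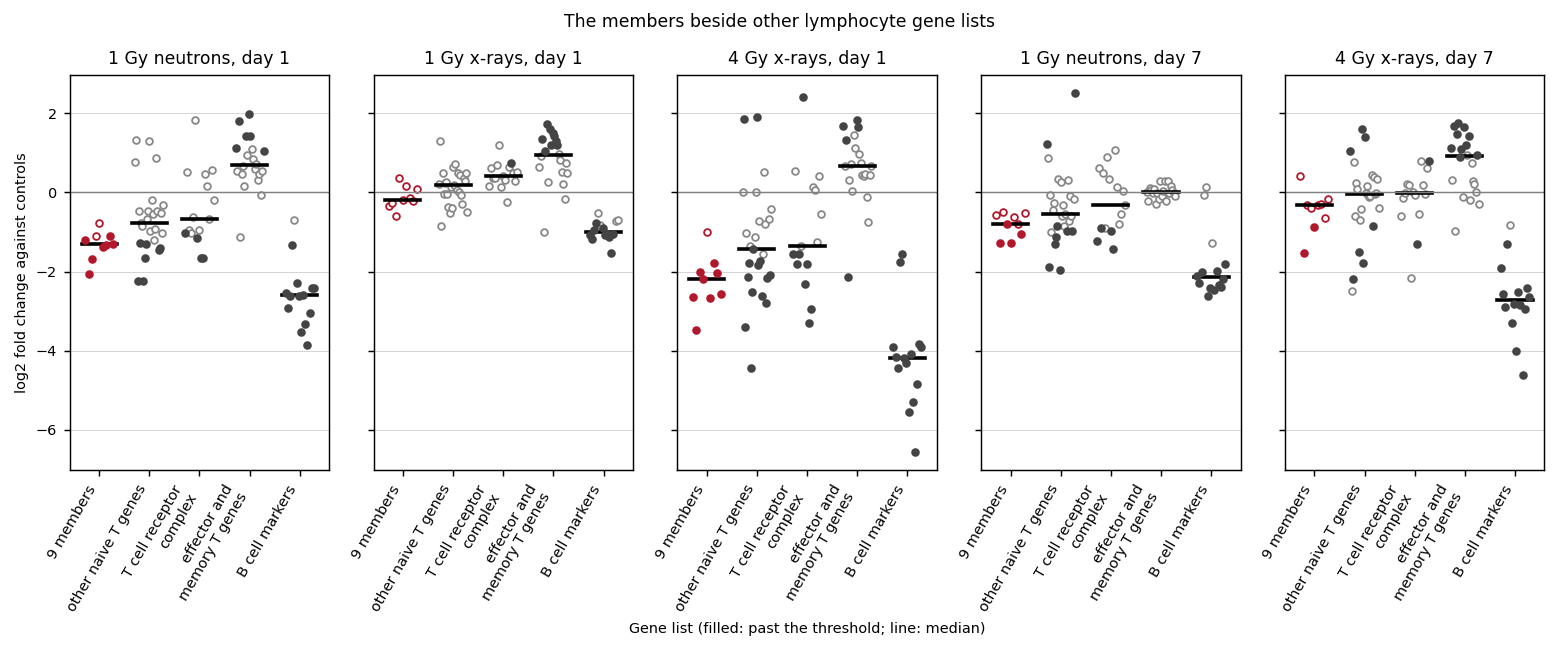
Log2 difference from controls (vertical axis) of each gene (points, filled where called) of 5 gene lists (horizontal axis), with the median of the list as a line, in 5 comparisons. After 4 Gy x-rays the medians of the B cell markers (-4.17 at day 1 and -2.73 at day 7) lie below those of the 9 genes (-2.19 and -0.33), and those of the effector and memory T genes (0.67 and 0.91) lie above 0.

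Over the 72 arrays the 36 pairs among the 9 genes had Pearson r between 0.541 (Klf2 with Foxp1) and 0.947 (Tcf7 with Lef1), with a median of 0.767, as a description over mice that share arrays, groups and centring. The 3 lowest pairs all held Klf2. The genes outside the list whose levels were most like Ccr7 were Scml4 (r = 0.967 over 72 arrays and 0.981 over the 13 group means) and E130215H24Rik (0.959 and 0.988). Tcf7 was most like Nsg2 (0.934) and Ift80 (0.929), Lef1 like Pik3ip1 (0.934) and Fam78a (0.932), Il7r like Fam78a (0.932) and Slain1 (0.924), and Satb1 like Fam78a (0.913) and C230085N15Rik (0.905). Bcl11b was most like the transcript ENSMUST00000103299 (0.890) and Tespa1 (0.883), S1pr1 like Cep68 (0.892) and Als2cl (0.888), Foxp1 like Aff3 (0.902) and Rpgrip1 (0.898), and Klf2 like Add3 (0.869) and Tgfbr2 (0.867).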

How the data were processed

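Blood was collected by cardiac puncture into RNA-stabilising tubes, globin transcripts were reduced, and the RNA was hybridised to one-colour Agilent mouse arrays. The authors scanned the arrays and extracted the spots with Agilent Feature Extraction 12.0.2 (per the submitters' processing notes, with mm9 probe positions), and the deposited processed signal of each spot is an intensity on a linear scale after background correction. The authors' methods then take log2, filter and centre on the median.

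Here log2 of that intensity was taken, spots of 1 probe were averaged (43020 spots that are no controls, 39429 probes), probes flagged on 25% or more of the arrays of days 1 and 7 were left out (19808 remained), the median of these was subtracted from each array, probes were kept where 20% of the arrays lay at least 1.5-fold from the probe's median (12556), and the brightest probe stood for each gene (10863 genes). Names were updated through accessions for 28330 probes, of which 1403 names changed. Groups were compared with limma 3.58.1 in R 4.3.3, 2 groups per fit (4 in the tests of day 7 minus day 1), and called at p below 0.001 and a false discovery rate below 5%. Confidence intervals are 95%. The random variance test of the methods was an alternative, and both were tested on simulated data. Mice are the replicates. For each of the 9 genes the text gives every comparison by its brightest detected probe, for each list the first 4 genes in written order that were tested, of which 1 is not reported here, and the 2 genes of like pattern with the highest r. These genes, and all lists, were chosen with earlier results of these data known. The series' table of the authors' processed log2 values was not used beyond an alternative for 0.25 Gy neutrons at day 1, since 12 of its 72 columns followed the array of their own sample best and 60 another's, 21 of these in another group. The replicate numbers name different mice, so no pairs were formed. The deviations of same-numbered mice had r from -0.557 to 0.645 over the comparisons with controls. All pairs were above 0 only for X1 at day 7 (0.08 to 0.39). Alternatives were quantile normalization, centring on spiked-in controls, on the 75th percentile or on Cd3, normexp with an offset of 50, dim spots as missing, no filters, the mean of probes, 1 fit of all groups, scan date, hepatocyte level, the replicate number, and leaving out each mouse.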

Additional observations from a re-analysis of the deposited data

Results flagged for a closer look

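A mouse far from the rest of its group, by Dixon's criterion, was found in 19 of 117 sets of values (9 genes in 13 groups). For independent sets chance gives about 1 in 20, or 5.85. These sets are not independent, since the 9 genes were measured in the same mice and move together (r from 0.541 to 0.947). The 2 numbers therefore do not show an excess of outlying mice. Mouse 5 of N0.25 at day 1 was the low one in 7 genes: Ccr7 (2.41), Tcf7 (0.80), Lef1 (1.72), Il7r (0.0389), Bcl11b (-2.24), Klf2 (3.23) and Satb1 (0.73). It had the highest mean hepatocyte level of its group, 8.10, and the part of that in its values was not tested. Mouse 1 of X1 at day 3 was low in Ccr7 (2.71) and Satb1 (0.67), with a hepatocyte level of 3.48, and mouse 4 of N0.25 at day 3 was low in Lef1 (2.75) and Il7r (1.27). Control 4 of day 1 was low in Il7r (1.87), Bcl11b (0.0516) and Satb1 (2.80), and control 5 of day 7 in Ccr7 (4.72) and S1pr1 (1.15). Mouse 5 of X1 at day 7, with the highest hepatocyte level of its group (3.89), was high in Bcl11b (1.06) and low in Klf2 (4.91). Mouse 3 of X1 at day 1 was high in Satb1 (3.67).

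The difference from controls was tested between day 7 and day 1 and differed for Foxp1 after N0.25 (1.25), N1 (1.20) and X1 (1.19), by the probe used and not with the mean of its probes. After X4 it differed for Ccr7 (1.93), Tcf7 (2.39), Lef1 (2.33), Il7r (1.78), Bcl11b (3.06), S1pr1 (1.48) and Foxp1 (1.70). The controls of the 2 days were scanned on different dates, and scan date cannot be told apart from day.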

How the results depend on the processing

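Counts of called genes among the 9 depended on the processing as follows, the cause being tested in no case. The random variance test gave the same side of the threshold in all 180 results, and over all alternatives 4406 values for single genes kept side and direction, 97 became and 296 ceased to be called, 16 changed direction and 180 moved without a call. Replicate numbers do not pair mice. With the replicate number as a block 2 were called after N1 at day 1, 2 at day 7, 1 after X4 at day 7, 1 for N1 against X1 and 0 for X4 against X1 at day 7, and 0 for the change between days after either neutron dose, and the other counts stayed within 1.5 times.

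With quantile normalization there was 1 call after X1 at day 1, 1 after each exposure of day 3, 1 after X4 at day 7 and 2 for N1 against X4 at day 7. With the 75th percentile 0 were called after X1 at day 7.

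With spiked-in controls as the zero, 2 were called after N1 at day 1, 2 after N0.25, 9 after N1, 0 after X1 and 1 after X4 at day 7. For N1 against X1 the counts were 1 and 7 at days 1 and 7, against X4 they were 6 and 9, and for X4 against X1 at day 7 0, with 0, 7 and 0 for the change between days after N0.25, N1 and X1. Here the sign turned for Ccr7 between N1 and X4 at day 7 (-1.78), for Foxp1 between X4 and X1 at day 7 (0.0736) and, in the change between days after N1, for Ccr7 (-1.65), Lef1 (-1.69), Il7r (-2.15), Bcl11b (-1.81), S1pr1 (-1.91), Satb1 (-2.42) and Foxp1 (-1.25). The median of all genes moved there from 0.08 to -2.41.

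With Cd3 as the zero, the counts were 1, 4 and 1 after N1, X1 and X4 at day 1, 2 after N1 and 0 after X1 at day 7, 0 at both days for N1 against X1, 0 against X4 at day 7, 1 and 0 for X4 against X1 at days 1 and 7, and 0, 0, 2 and 1 for the change between days after N0.25, N1, X1 and X4. The sign turned at day 1 between N1 and X1 for Bcl11b (0.48), S1pr1 (0.15) and Foxp1 (0.24) and between X4 and X1 for S1pr1 (0.41), Satb1 (0.25) and Foxp1 (0.63), and for S1pr1 in the change between days after X4 (-0.22).

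With normexp the counts were 2 after N1 at day 1, 0 and 1 after X1 and X4 at day 7, 1 and 8 for N1 against X1, 0 against X4 and 1 for X4 against X1 at day 7, and 0, 0, 0 and 3 for the changes between days in the same order. With dim spots missing they were 1 after X1 at day 3, 9 after N1, 9 for these against X1 and 7 against X4 at day 7, and 0 for both neutron changes between days. Without the detection filter they were 0 and 1 after X1 and X4, 7 for N1 against X1 and 0 for X4 against X1 at day 7, and 0 for both neutron changes between days. Without the 1.5-fold filter there was 1 after each exposure of day 3. The mean of probes gave 1 after X1 at day 1 and 0 for the changes between days after all exposures but X4.

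With all groups in 1 fit, 1 was called after N0.25 at day 1, 1 after each exposure of day 3, 0 and 1 after X1 and X4 at day 7, 4 for N1 against X4 at day 1 and 1 for X4 against X1 at day 7. With scan date as a fixed block, 2 and 1 were called after N1 at days 1 and 7, 0 at both days against X1, 0 at day 7 against X4, 0 for X4 against X1 at day 1 and 0 for the change between days after N1. As a random block it gave 1 after X1 at day 3 and 0 for their change between days. With the hepatocyte level as a covariate, 3 were called after X4 at day 1, 2 after N1, 0 after X1 and 1 after X4 at day 7, and 5 for X4 against X1 at day 1. Among mice with a hepatocyte level above 0 at day 1 or below 0 at day 7, 2 were called after N1 at day 1 and 0 and 1 after X1 and X4 at day 7.

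Leaving out 1 mouse, the counts ranged from 4 to 8 after N1 at day 1 (4 without control 2), 8 to 9 after X4 at day 1, 3 to 5 after N1, 0 to 1 after X1 and 2 to 3 after X4 at day 7. They were 6 to 8 and 0 to 5 for N1 against X1 at days 1 and 7, and 0 to 1, 0 to 1 and 5 to 8 for the changes between days after N0.25, N1 and X4. The comparisons between controls of different days were made with the array median and with Cd3 as the zero, where 2 and 3 calls became 1 each, and in no other setting.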

Other observations

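Genes outside the naive T cell programme were read from lists in the same fits. Of 16 listed targets of p53, 9 were tested. At day 1, 7 of these had risen after N1, 7 after X1 and 7 after X4, and at day 7, 5 had risen after X4. Over all genes tested 6.96, 3.09 and 16.5% rose in the 3 comparisons of day 1, and 9.06% after X4 at day 7. Cdkn1a, the cell cycle inhibitor p21, rose by 4.20, 3.11 and 4.15 in the 3 comparisons of day 1, and at day 7 by 1.45 after N1 and 3.07 after X4. Ccng1 rose by 1.32, 1.10 and 1.25, and Bax, which drives apoptosis, by 0.82, 0.96 and 0.97 at day 1. Bbc3, a further gene of apoptosis, rose by 0.96 after N1 and 1.11 after X1, and stood at 0.89 after X4, not called. On day 1 after X1, 0 of the 9 naive T cell genes were called.

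Of 11 markers of NK cells 5 had risen at day 7 after X4, of 10 neutrophil markers tested 5 had risen after N1 and 3 after X4 at day 7, of 10 monocyte markers 3 had fallen and 2 risen after X4 at day 1, and of 12 platelet markers 3 had risen after X1 at day 3. Of the 15 red cell markers 7 had fallen and 1 risen after X4 at day 1, and at day 7 14 had risen after N1, 9 after X1 and 7 after X4. Over all genes tested 18.6% fell and 16.5% rose after X4 at day 1, 1.58% rose after X1 at day 3, and at day 7 25.1% rose after N1, 3.29% after X1 and 9.06% after X4.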
